A study of Mus musculus with 16 samples.

Results

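The CD3 complex genes are Cd3e, Cd3d, Cd3g and Cd247, which encode the 4 signalling chains of the T cell receptor. They were taken by name, as 4 of the 21776 genes annotated, and the DNA methylation of each was measured in windows of 1 kb on either side of its transcription start site (TSS) and in tiles of 500 bp from 5 kb upstream of the TSS to the gene end. All 4 genes had a testable window at the TSS, among 21312 genes that did.

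Whole-genome bisulphite libraries had been made from 2 purified spleen cell types of C57BL/6J mice aged 6-8 weeks: CD43- B cells and CD4+CD62L+ T cells, each isolated with magnetic beads. There were 8 libraries per cell type, of which 4 were from males and 4 from females, and the labels name no treatment or genetic change. For every combination of sex and cell type, 2 libraries underwent bisulphite conversion (BS), which reads 5-methylcytosine and 5-hydroxymethylcytosine alike as methylated, and 2 underwent oxidative bisulphite conversion (oxBS), which reads only 5-methylcytosine as methylated. Mice were pooled for each sample and the labels name no animal, so the libraries were treated as replicates and the p-values measure the spread between libraries, which may in part be technical. The methylation level of a window was the percentage of its calls that were methylated, with all calls of a library in the window pooled. These are averages over many cells and both alleles, so a level between 0 and 100% does not tell a few wholly methylated copies from many partly methylated ones.

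The T cell receptor recognises antigen through its alpha and beta chains, which have almost no cytoplasmic tail. Signals are passed on by CD3 epsilon, CD3 delta, CD3 gamma and the zeta chain (encoded by Cd247), whose tails carry immunoreceptor tyrosine-based activation motifs (ITAMs) that are phosphorylated by Lck and then bind Zap70. The epsilon chain pairs with delta or with gamma, and zeta forms a homodimer that completes the assembly and allows the receptor to reach the cell surface. Mature T cells express all 4 genes, whereas B cells signal through a related pair of ITAM chains, CD79a and CD79b. Methylation of CpG dinucleotides near a TSS is commonly associated with silent genes.

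On the mm10 build with GENCODE vM21 annotation, Cd3g, Cd3d and Cd3e lay together within 40056 bp of chromosome 9. Cd3g (ENSMUSG00000002033.14, chr9:44969572-44980431, minus strand, 7 exons) and Cd3d (ENSMUSG00000032094.8, chr9:44981786-44987339, plus strand, 5 exons) were head to head, with 1355 bp between their TSSs. Cd3e (ENSMUSG00000032093.7, chr9:44998740-45009627, minus strand, 8 exons) was tail to tail with Cd3d, its 3′ end 11401 bp from that of Cd3d. Cd247 (ENSMUSG00000005763.15, chr1:165788681-165877277, plus strand, 8 exons) was on chromosome 1 and spanned 88597 bp, of which 65484 bp were first intron beyond the window at the TSS. The windows of Cd3g and Cd3d overlap, so their values share CpGs and are not independent.

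The bases immediately upstream of each TSS are shown first, as part of the windows in which the cell types were compared. The sequences are from RefSeq on GRCm38.p6, are written 5′ to 3′ on the strand of the gene, and have their CpGs in capitals.
Cd3e, chr9:45009628-45009861, minus strand: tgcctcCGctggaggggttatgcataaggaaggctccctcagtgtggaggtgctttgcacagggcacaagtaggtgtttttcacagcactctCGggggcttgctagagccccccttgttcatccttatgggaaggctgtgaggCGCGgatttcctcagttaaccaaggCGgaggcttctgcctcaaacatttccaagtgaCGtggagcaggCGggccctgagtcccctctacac
Cd3d, chr9:44981536-44981785, plus strand: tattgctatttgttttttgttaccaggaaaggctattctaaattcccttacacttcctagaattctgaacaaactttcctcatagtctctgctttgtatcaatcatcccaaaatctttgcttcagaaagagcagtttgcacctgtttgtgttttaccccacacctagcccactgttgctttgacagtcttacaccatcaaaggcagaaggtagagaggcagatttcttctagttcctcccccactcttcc
Cd3g, chr9:44980432-44980681, minus strand: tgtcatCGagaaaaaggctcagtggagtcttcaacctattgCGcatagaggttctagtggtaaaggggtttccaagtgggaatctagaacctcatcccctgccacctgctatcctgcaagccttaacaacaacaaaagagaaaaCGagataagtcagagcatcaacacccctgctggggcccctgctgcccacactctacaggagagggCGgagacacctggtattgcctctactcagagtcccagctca
Cd247, chr1:165788431-165788680, plus strand: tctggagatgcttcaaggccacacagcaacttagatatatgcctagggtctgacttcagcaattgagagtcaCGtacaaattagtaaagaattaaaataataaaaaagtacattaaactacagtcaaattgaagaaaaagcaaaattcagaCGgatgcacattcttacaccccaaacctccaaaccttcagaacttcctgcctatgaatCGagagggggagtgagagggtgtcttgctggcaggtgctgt

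The upstream stretch of Cd3e held 7 CpGs. With the 8 libraries of a cell type pooled, these were between 59.5% and 98.7% methylated in B cells, compared with 0% to 1.45% in T cells. The stretch of Cd3g held 4, of which 3 were between 76.6% and 93.8% methylated in B cells, while the CpG 105 bp upstream of the TSS was methylated in 14.3% of 56 calls. In T cells the same 4 CpGs of Cd3g were between 0% and 3.64%. That of Cd247 held 3 CpGs, methylated in B cells in 68.6% of 51 calls, 0% of 33 calls and 11.4% of 35 calls in order towards the TSS, against 2.33%, 0% and 0% in T cells. No CpG lay in the 250 bases upstream of Cd3d, so the values of its window came from CpGs downstream of the TSS or further upstream. The letters TATAAA (the core promoter element bound by Tbp) occurred on neither strand of any of the 4 stretches, against 12.4% of 32851 RefSeq promoters searched over 250 bases, and TGTGGT (RUNX) on none, against 14%. AGATAA (letters bound by Gata3) was found in Cd3g alone, against 10.0% of promoters, and CTTTGA (TCF/LEF) in Cd3d alone with 2 matches, against 13.8%. TGGGAA (Ikaros) was present in Cd3e and Cd3g, against 21.6%. GGAAG (ETS core) was present in Cd3e, Cd3d and Cd247 and CANNTG (E-box) in all 4, and these short letters were held by 64.1% and 66.2% of promoters. The Cd3e stretch was 234 bases long and therefore slightly shorter than those it is set against.

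Around the TSS all 4 genes were methylated in B cells and almost unmethylated in T cells. Cd3d, whose product pairs with CD3 epsilon, had the highest B cell level: the 8 B cell libraries had a lowest level of 92.4%, a median of 94.1% and a highest of 97%, and the 8 T cell libraries 1.52%, 3.75% and 9.29%. Cd3e, shared by both CD3 heterodimers, had levels of 83.9%, 86.9% and 88.1% (lowest, median and highest) in B cells and of 1.05%, 2.46% and 5.53% in T cells. In none of the 4 genes did the ranges of the cell types meet, and the lowest B cell library was between 72.2 and 83.1 percentage points above the highest T cell library. How many of all windows had ranges that did not meet is not given here. The lack of overlap alone therefore does not set the 4 genes apart. Cd3g, the partner of CD3 epsilon in the other heterodimer, ran from 80% to 93.2% with a median of 88.0% in B cells and from 1.47% to 7.19% with a median of 3.43% in T cells. Cd247 ran from 75.6% to 89.3% with a median of 85.3% in B cells and from 0.306% to 3.38% with a median of 1.70% in T cells.

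**Figure D1:**
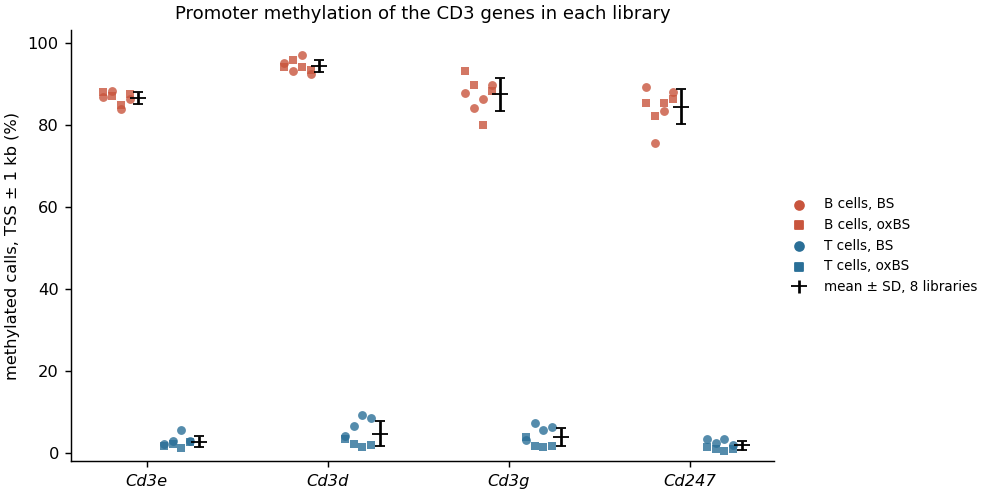
Methylation level (%, vertical axis) of the window of 1 kb on either side of the TSS in each of the 16 libraries, for Cd3e, Cd3d, Cd3g and Cd247 (horizontal axis). Circles are BS and squares oxBS libraries, and bars show the mean ± SD of the 8 libraries of a cell type. B cell libraries lie between 75.6% and 97% and T cell libraries between 0.306% and 9.29%.

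The difference between the means (B minus T) was 89.7 percentage points for Cd3d, from 94.3% ± 1.53 in B cells to 4.66% ± 3.06 in T cells (SD, n = 8 libraries each, adjusted p = 1.67e-10, two-sided exact permutation p = 0.000155). It was 83.9 points for Cd3e (86.5% ± 1.5 against 2.63% ± 1.34, SD, n = 8, adjusted p = 2.5e-11, exact permutation p = 0.000155). For Cd3g it was 83.5 points (87.3% ± 3.99 against 3.84% ± 2.28, SD, n = 8, adjusted p = 1.9e-09, exact permutation p = 0.000155). For Cd247 it was 82.6 points (84.4% ± 4.23 against 1.81% ± 1.16, SD, n = 8, adjusted p = 4.63e-10, exact permutation p = 0.000155). The exact p is the smallest that 8 libraries against 8 can give. By the methods, part of the DNA of each sample was oxidised, so a BS and an oxBS library may share their DNA. Each cell type then has fewer than 8 independent samples, and these p-values are too small. All 4 genes were also called within the BS and within the oxBS libraries alone, where 4 against 4 allow an exact permutation p no smaller than 0.0286. The adjusted p-values came from a quasi-binomial logistic model that also held terms for sex and assay, fitted to all 21312 genes. Each value rests on between 88 and 380 calls per library in the window.

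A window was called when the adjusted p was under 0.05 and the means differed by at least 20 points. All 4 genes were called and higher in B cells, against 0.732% of all windows called in that direction and 1.14% called in either. Ranked by the size of the difference over all genes, Cd3d was at place 3, Cd3e at 5, Cd3g at 6 and Cd247 at 8. Over all genes the median difference was 0.569 points and the 99th percentile 15.9 points. A level of at most 5% in T cells together with at least 80% in B cells was found in 8 windows of the genome, among them those of the 4 CD3 genes, of Trbc1 and Trbc2 (the constant regions of the receptor beta chain) and of Themis (a regulator of receptor signalling in thymocytes). The opposite pattern was found in 0 windows. Both counts depend on the limit of 5%, which Cd3d, at 4.66% in T cells, only just met. Trac, at 11.7% in T cells and 94.6% in B cells, was outside it. In the opposite direction so was Ms4a1, at 13.6% in B cells and 94.2% in T cells.

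**Figure D2:**
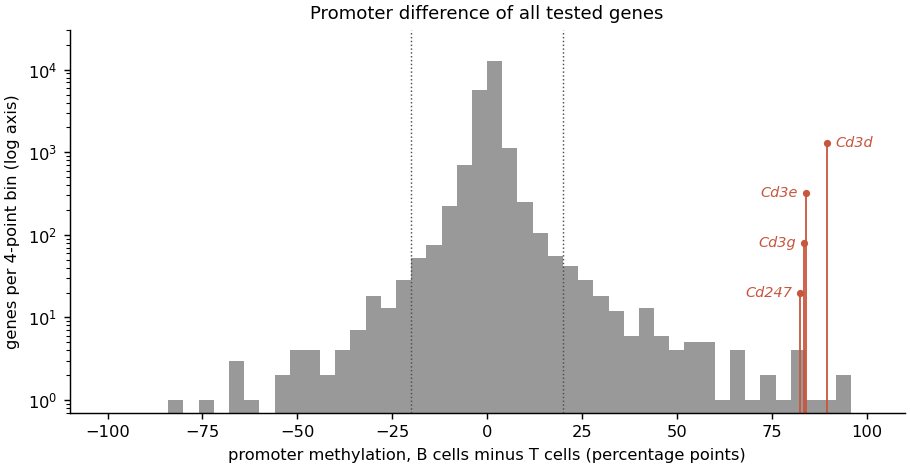
Number of genes (vertical axis, log scale) by the difference in methylation at the TSS between B and T cells (horizontal axis, percentage points, B minus T) for the 21312 genes tested. Lines mark Cd3e, Cd3d, Cd3g and Cd247, which lie between 82.6 and 89.7 points and whose line heights carry no value, and dotted lines mark the limit of 20 points either way.

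The 4 genes were close to each other in T cells, where the ranges of every pair overlapped. In B cells, Cd3d was the highest, its lowest library (92.4%) being above the highest of Cd3e (88.1%) and of Cd247 (89.3%), whereas it overlapped with Cd3g, whose highest library was at 93.2%. Cd3e, Cd3g and Cd247 overlapped with one another. These windows were CpG poor compared with the median of 63 CpGs per window. Cd3e had 41 CpGs, Cd247 39, Cd3d 19 and Cd3g 15, and between 15.1% and 37.1% of windows had fewer.

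Most single CpGs followed the windows. With the libraries of a cell type pooled, 34 of the 41 CpGs of Cd3e, 19 of 19 of Cd3d, 12 of 15 of Cd3g and 32 of 39 of Cd247 were at least 80% methylated in B cells. In T cells 30, 14, 12 and 33 of the same CpGs were at most 5% methylated, and 38, 18, 14 and 39 were at most 20%. The smallest difference at a single CpG was 40.4 points in Cd3e, 60.6 in Cd3d, 10.6 in Cd3g and 0 in Cd247. The highest T cell level of a CpG was 58.8%, in Cd3e. The longest unbroken run of CpGs at or below 20% in T cells around Cd3e had 22 CpGs, reached from 328 bp upstream to 776 bp downstream of the TSS, and had a median CpG level of 93.3% in B cells. A run of 35 CpGs over 3999 bp crossed the TSS of Cd3g, reaching 3307 bp into that gene and ending upstream of Cd3d, at −664 bp from its TSS, with a median of 92.9% in B cells against 0% in T cells.

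The tiles placed these regions within each gene. Of 1760222 tiles tested over all genes, 3.67% were called, 2.45% were called and higher in B cells and 1.22% were called and higher in T cells. In the tiles of the CD3 genes, 161 of 250 tested were called, 159 of them higher in B cells. The called tiles numbered 12 of 31 in Cd3e, 16 of 19 in Cd3d, 20 of 27 in Cd3g and 113 of 173 in Cd247. Tiles of Cd3g and Cd3d overlap and were counted for both genes. Counted once per base, 16388 of the 30888 bp tested in the chromosome 9 cluster (53.1%) and 55500 of 86500 bp in Cd247 (64.2%) were in tiles called as higher in B cells. The groups did not overlap in 11 of the called tiles of Cd3e, 16 of Cd3d, 18 of Cd3g and 105 of Cd247. The share of all called tiles without overlap is not given here, so these counts do not set the CD3 genes apart.

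In Cd3e the called tiles around the TSS formed one block from −2500 to +2499 bp. The tile starting at the TSS had 93.8% ± 2.87 in B cells against 0.664% ± 1.25 in T cells (SD, n = 8, adjusted p = 4.82e-09, exact permutation p = 0.000155), with libraries between 89.8% and 98.0% and between 0% and 3.09%. The tiles on either side, starting at +500 and −500 bp, differed by 85.2 and 83.7 points. The block ended abruptly: the tile at +2000 bp had 68.3% ± 3.59 in B cells against 18.5% ± 11.9 in T cells, and the next had 91.3% ± 2.73 against 84.7% ± 9.40, a difference that was not called (adjusted p = 0.151). At the upstream edge, the tile at −2500 bp had 81.5% in B cells against 56.8% in T cells, and the tile at −3000 bp had 92.3% and 85.2% and was not called. Towards the 3′ end a second region was called, in which the tile at +10500 bp had 64.9% ± 19.3 in B cells (n = 7) and 13.4% ± 9.11 in T cells (n = 8).

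The largest difference in Cd3e outside its exons and the window at the TSS was in the tile at +1500 bp, in the second intron, with 86.4% ± 3.79 in B cells against 3.93% ± 2.94 in T cells (SD, n = 8). Its central 300 bases held 9 CpGs, of which 8 were at most 7.69% methylated in T cells and 1 was at 47.1% of 17 calls, while the 9 were between 67.9% and 96.5% in B cells. The sequence is shown as an example of an intronic region that differed as the TSS did, on GRCm38.p6 with CpGs in capitals.
Cd3e, intronic, chr9:45007728-45008027, minus strand: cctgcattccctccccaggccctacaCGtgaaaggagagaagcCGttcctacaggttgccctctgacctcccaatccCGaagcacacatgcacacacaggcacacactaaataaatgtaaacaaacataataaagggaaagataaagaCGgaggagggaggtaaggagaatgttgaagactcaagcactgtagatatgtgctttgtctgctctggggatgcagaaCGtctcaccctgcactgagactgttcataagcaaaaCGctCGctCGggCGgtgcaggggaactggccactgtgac

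In Cd3d, all 19 tested tiles were at most 20% methylated in T cells, from 5 kb upstream to the gene end. The called block ran from −5000 bp, inside Cd3g, to +3999 bp. It held 16 tiles over 9000 bp, so not every position in it was a called tile. Its tile with the largest difference started at −2500 bp, where B cells had 97.3% ± 2.10 and T cells 0.291% ± 0.822 (SD, n = 8, adjusted p = 1.92e-08, exact permutation p = 0.000155). The B cell libraries lay between 93.8% and 100%, and 7 of the 8 T cell libraries were at 0%. The tiles at +500 and +1000 bp, both in the first intron of Cd3d, differed by 94.0 and 93.9 points, the latter with 6 B cell libraries informative. At the 3′ end the B cells were low as well. B cell levels there were 20.1% ± 9.93 at +4000 bp, 0.482% ± 0.731 at +4500 bp and 7.59% ± 2.31 at +5000 bp, against 0.260%, 0% and 2.17% in T cells, and none of these tiles was called. The difference at +4000 bp fell just short of the limit of 20 points. From exon 2 to the last exon of Cd3d, 1 of 4 tested tiles was called and 2 had an adjusted p under 0.05. A run of 18 CpGs from +4425 to +5325 bp was at or below 20% in the B cells.

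The tile of Cd3d with the largest difference is in the first intron of Cd3g. Its central 300 bases, with 4 CpGs in capitals, were between 94.8% and 100% methylated in B cells, compared with 0% to 1.06% in T cells at each CpG.
Cd3g first intron, chr9:44979386-44979685, plus strand: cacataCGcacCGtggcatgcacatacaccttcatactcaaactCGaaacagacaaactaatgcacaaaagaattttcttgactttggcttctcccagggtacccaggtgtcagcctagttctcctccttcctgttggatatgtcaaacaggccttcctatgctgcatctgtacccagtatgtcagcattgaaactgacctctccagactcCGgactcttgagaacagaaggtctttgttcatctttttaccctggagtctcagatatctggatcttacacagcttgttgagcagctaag

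In Cd3g the block reached from −5000 bp, inside Cd3d, to +3999 bp, with 17 tiles over 9000 bp, so here too not every position was a called tile. Not 1 of 504 calls was methylated in T cells in the tile that starts at the TSS, which allows a level of up to 0.595%, against 92.8% ± 4.92 in B cells (adjusted p = 6.8e-09). The tile at +1000 bp gave 0 of 317 calls in T cells, which allows up to 0.946%, against 95.1% ± 2.71 in B cells (adjusted p = 1.59e-08). These limits and the intervals of levels cover counting error only. The T cell level was higher at the downstream end of the block, being 8.20% ± 6.28 at +3000 bp and 73.2% ± 22.8 at +3500 bp, against 89.3% ± 5.47 and 96.3% ± 4.14 in B cells. Further along, the tiles at +6000, +6500 and +7000 bp were called with differences of 26.0, 31.6 and 25 points. Towards the 3′ end, the tiles at +9000 and +9500 bp had 68.8% and 50.2% in B cells against 81.3% and 65.5% in T cells, neither of which was called.

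**Figure D3:**
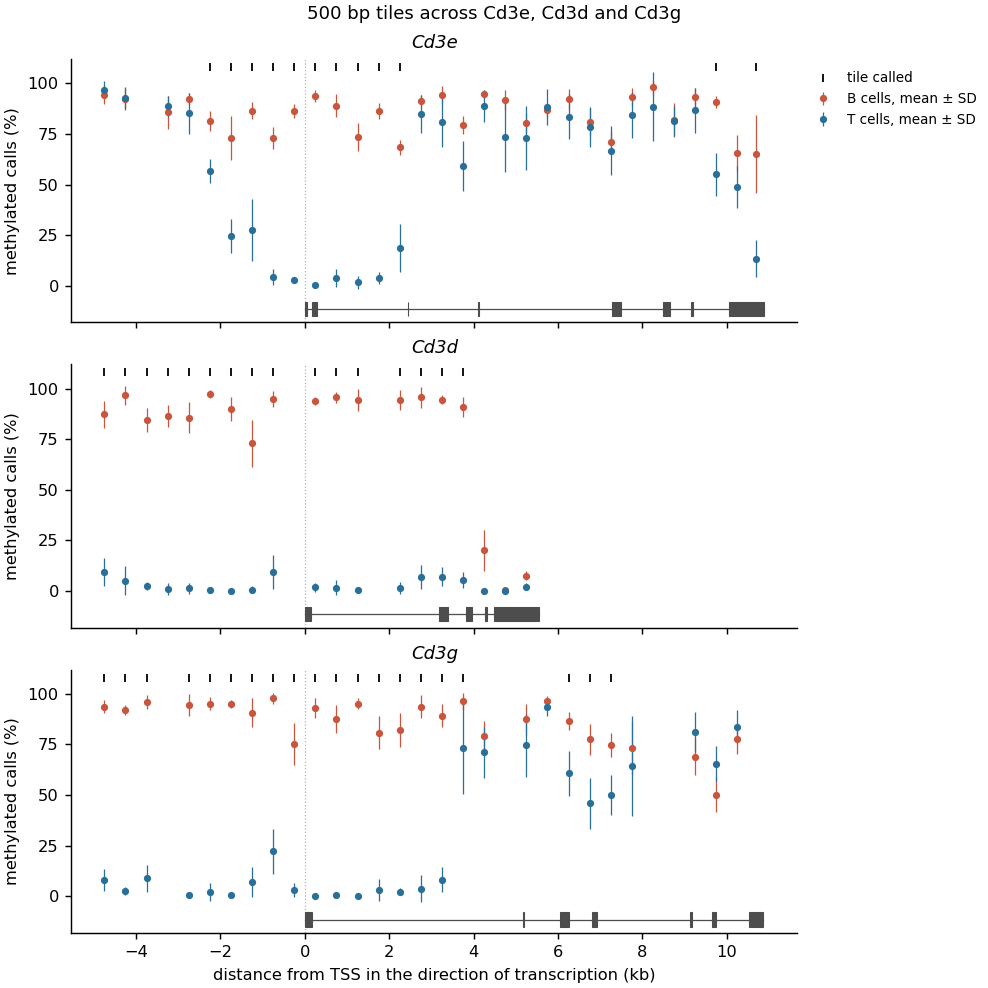
Methylation level (%, vertical axis) of 500 bp tiles by distance from the TSS (kb, horizontal axis, positive in the direction of transcription) for Cd3e, Cd3d and Cd3g. Points and bars are the mean ± SD of the libraries of a cell type, ticks at the top mark called tiles, and the line and boxes below mark the gene and the exons of its principal transcript. The 2 cell types are apart around each TSS. In Cd3e they are 91.3% and 84.7% in the tile at +2500 bp and apart again in called tiles near the 3′ end, and near the 3′ end of Cd3d both are low.

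Cd247 was the longest gene of the complex and its difference extended furthest. The block around its TSS ran from −1000 to +17499 bp, and further called tiles continued through the first intron. The block held 34 tiles over 18500 bp, so not every position in it was a called tile. Of 122 tested tiles that lay wholly within the first intron, 101 were called, 101 of them higher in B cells. Median levels of these tiles were 93.3% in B cells against 39.3% in T cells. In T cells 43 of them were at most 20% methylated, 72 were between 20% and 80% and 7 were at or above 80%. From exon 2 to the last exon, 0 of 13 tiles were called (7 at an unadjusted p under 0.05), with medians of 92.3% in B cells against 90.4% in T cells. Beyond the last exon of the principal transcript, 4 of 24 tiles were called.

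The tile of Cd247 with the largest difference began at +39500 bp, in the first intron, at 97.9% ± 2.02 in B cells against 1.51% ± 2.70 in T cells (SD, n = 8, adjusted p = 2.75e-08, exact permutation p = 0.000155). Its 8 B cell libraries lay between 95.3% and 100% and its 8 T cell libraries between 0% and 7.69%. The tiles at +1500 and +4000 bp followed, with differences of 95.8 and 95.4 points, the latter in 7 B cell libraries. The tile at the TSS had 86.9% ± 4.95 in B cells against 1.85% ± 1.58 in T cells. The central bases of the tile at +39500 bp held 6 CpGs, in capitals, between 94.4% and 100% methylated in B cells, compared with 0% to 5.17% in T cells.
Cd247 first intron, chr1:165828281-165828580, plus strand: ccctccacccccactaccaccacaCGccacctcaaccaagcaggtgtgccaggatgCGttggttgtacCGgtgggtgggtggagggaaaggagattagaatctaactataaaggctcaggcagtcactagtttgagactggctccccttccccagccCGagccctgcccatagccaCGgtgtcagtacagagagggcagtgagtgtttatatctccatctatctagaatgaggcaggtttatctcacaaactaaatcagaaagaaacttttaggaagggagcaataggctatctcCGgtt

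Some tiles of Cd247 were not fully methylated in B cells. The tile just upstream of the TSS had 47.2% ± 6.50 in B cells against 3.59% ± 3.88 in T cells, and the tile at +54500 bp had 39.1% ± 12.7 in B cells and 0% in all 8 T cell libraries. Both were called. A CpG-dense stretch was low in both cell types, with a run of CpGs at or below 20% from +55703 to +57164 bp in T cells and from +56065 to +57164 bp in B cells. In it the tile at +56000 bp, with 29 CpGs, had 0.110% ± 0.310 in B cells against 0.102% ± 0.290 in T cells.

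Of the called tiles of all 4 genes, 2 were higher in T cells, both in Cd247. The tile at −2500 bp had 59.2% ± 8.21 in B cells against 80.9% ± 6.48 in T cells, 21.8 points higher in T cells (SD, n = 8, adjusted p = 0.0013, exact permutation p = 0.000155), with B cell libraries between 45.6% and 71.6% and T cell libraries between 74.2% and 92.2%. The call sat near the limit of 20 points and was lost without B cell library 12, when the tile was 19.8 points higher in T cells, and in oxBS (14.6 points), male (16.2 points) and female libraries alone (27.4 points). The tile at +84000 bp had 17.5% ± 13.4 in B cells against 76.0% ± 17.1 in T cells over 2 CpGs and 7 libraries of each (adjusted p = 0.00324, exact permutation p = 0.000583). That tile lies beyond the principal transcript of Cd247, where the gene overlaps Pou2f1 on the other strand, and its call was lost in each sex and in each assay alone. The central bases of the tile at −2500 bp held 8 CpGs, in capitals, between 17.9% and 92.8% methylated in B cells, compared with 52.5% to 95.0% in T cells.
Cd247 upstream, chr1:165786281-165786580, plus strand: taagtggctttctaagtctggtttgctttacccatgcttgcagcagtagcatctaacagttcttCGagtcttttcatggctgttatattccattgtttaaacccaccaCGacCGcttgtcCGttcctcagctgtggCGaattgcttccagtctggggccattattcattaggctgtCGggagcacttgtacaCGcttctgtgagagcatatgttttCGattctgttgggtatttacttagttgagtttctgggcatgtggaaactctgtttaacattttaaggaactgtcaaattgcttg

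**Figure D4:**
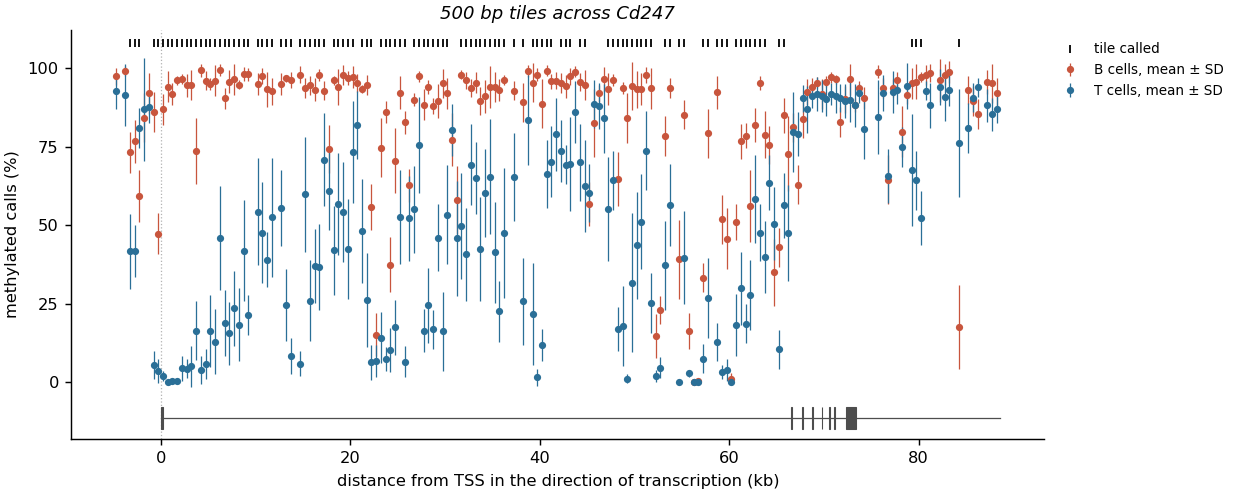
Methylation level (%, vertical axis) of 500 bp tiles of Cd247 by distance from the TSS (kb, horizontal axis). Points and bars are the mean ± SD of the libraries of a cell type, ticks at the top mark called tiles, and boxes mark exons of the principal transcript. T cells are below B cells through most of the first intron, both are near 0% in the tile at +56000 bp, and the medians of the tiles from exon 2 to the last exon are 92.3% and 90.4%.

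Levels of tiles were then counted in 3 classes. Of the tested tiles, T cells had 8 at or below 20%, 10 between and 13 at or above 80% in Cd3e, 19, 0 and 0 in Cd3d, 15, 9 and 3 in Cd3g, and 48, 83 and 42 in Cd247. B cells had 0, 8 and 23 in Cd3e, 2, 2 and 15 in Cd3d, 0, 8 and 19 in Cd3g, and 7, 34 and 132 in Cd247. Over all genes, among tiles that could also be tested for assay, the classes held 81607, 254253 and 1365723 tiles in T cells. In B cells they held 75624, 228650 and 1382350.

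Gene bodies, from the end of the window at the TSS to the gene end, differed less than the windows did. All 4 were called, against 0.748% of 20043 bodies called in the same direction and 0.873% in either. The body of Cd3d had 56.3% ± 3.38 in B cells against 3.36% ± 2.17 in T cells, with libraries between 50.6% and 61.0% and between 0.794% and 6.65% (adjusted p = 2e-08). That of Cd247 had 81.1% ± 0.756 in B cells against 42.9% ± 7.65 in T cells, with T cell libraries between 34.1% and 51.0% (adjusted p = 4.82e-08). In Cd3g the values were 79.8% ± 1.36 and 47.6% ± 8.31, with T cell libraries between 38.9% and 56.5% (adjusted p = 3.95e-07). In Cd3e they were 83.9% ± 1.38 and 62.8% ± 8.47, with T cell libraries between 52.4% and 72.5% (adjusted p = 1.45e-05). None of the 4 had overlapping groups, and the exact permutation p was 0.000155 for each. The share of all bodies without overlap is not given here, so this does not set the 4 genes apart. The difference of 21.1 points in Cd3e was close to the limit, and its call was lost in male libraries alone (19.9 points), without T cell library 8 (19.7 points), without T cell library 14 (19.6 points) and in BS libraries alone (12.8 points).

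In T cells the bodies separated by assay. BS minus oxBS gives the part of the signal that oxidation removes, which is read as 5-hydroxymethylcytosine when conversion is otherwise alike. The oxBS libraries cannot be matched to their BS counterparts from the labels, so they were compared as groups of 4. In Cd247 the BS libraries of T cells had bodies at 48.8%, 49.8%, 50.3% and 51.0%, and the oxBS libraries at 34.1%, 35.8%, 36.4% and 36.9%. In Cd3g the BS libraries had 54.6%, 55.1%, 55.2% and 56.5%, and the oxBS libraries 38.9%, 39.0%, 39.7% and 42.1%. All BS values were above all oxBS values. The share of all bodies separated in this way is not given here, so this does not set the genes apart. Over all genes the BS mean of the body was the higher in 81.4% in T cells. Cd3e gave 68.5%, 69.7%, 71.2% and 72.5% in BS libraries and 52.4%, 53.4%, 57.3% and 57.4% in oxBS libraries. Cd3d, already low, gave 3.4%, 4.47%, 5.91% and 6.65% in BS libraries and 0.794%, 1.17%, 1.70% and 2.78% in oxBS libraries.

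The BS level exceeded the oxBS level in T cells by 15.4 points in Cd3e (adjusted p = 0.0046), 15.4 points in Cd3g (adjusted p = 0.00324), 14.2 points in Cd247 (adjusted p = 0.00124) and 3.49 points in Cd3d (adjusted p = 0.0466). The exact permutation p was 0.0286 for each, the smallest that 4 libraries against 4 can give. A difference at this threshold was common: 25.6% of 20039 bodies passed in T cells with BS higher, and the median over all genes was 1.27 points. In size, Cd3g was at place 67, Cd3e at 68 and Cd247 at 94 of all bodies, above the 99th percentile of 12.1 points, and Cd3d was at place 3525. The call of Cd3d was lost when any one of the 8 T cell libraries was left out. In B cells the bodies of the 4 genes differed between assays by −1.57 to −0.317 points, and 0 of 20025 bodies passed (413 at an unadjusted p under 0.05).

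The difference between the cell types was not the same in the 2 assays. It was 12.8 points in BS and 29.4 points in oxBS libraries for Cd3e (interaction adjusted p = 0.00143), 24.1 and 40.3 points for Cd3g (0.00142), 31.0 and 45.5 points for Cd247 (0.000128), and 50.4 and 55.5 points for Cd3d (0.0213). An interaction of cell type and assay passed in 17% of all bodies. For the windows at the TSS, by comparison, the interaction passed in 0 of 21312 (2176, or 10.2%, at an unadjusted p under 0.05). All 4 CD3 genes were among those 2176, with unadjusted interaction p-values between 0.0115 and 0.0489. In their windows the BS difference minus the oxBS difference was between −4.87 and −2.15 points, the same direction as in the bodies.

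**Figure D5:**
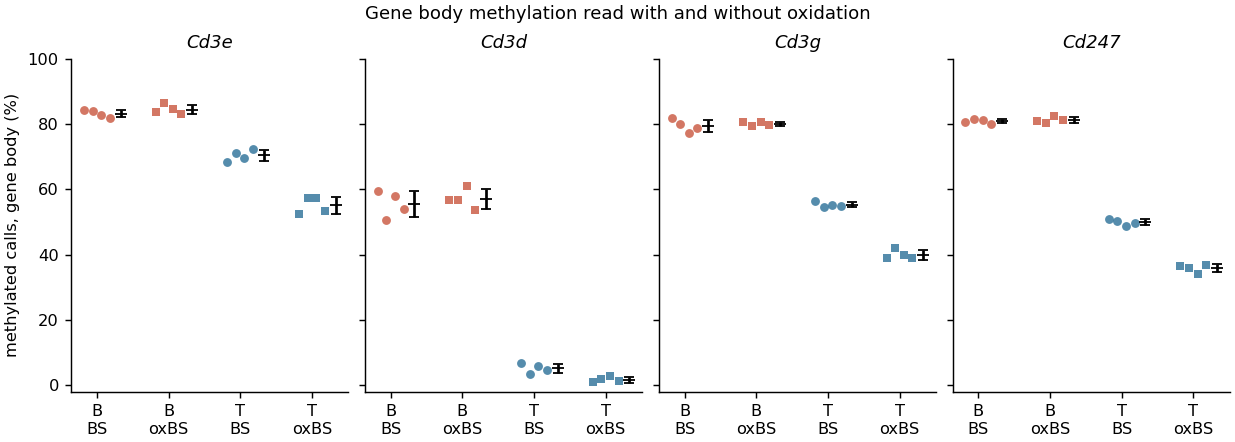
Methylation level (%, vertical axis) of the bodies of the 4 genes in BS and oxBS libraries of B and T cells (horizontal axis), 1 panel per gene. Each point is a library and bars are the mean ± SD of 4 libraries. In T cells all BS libraries lie above all oxBS libraries in each gene, by 3.49 points on average in Cd3d and by 14.2 to 15.4 points in the others. The share of all bodies separated in this way is not given.

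By part of the gene, the first intron of Cd247 beyond the window at the TSS was at 40.6% ± 1.00 in BS and 24% ± 0.556 in oxBS libraries of T cells (SD, n = 4), whereas the stretch from exon 2 to the last exon, at 90.2% in B cells against 89.3% in T cells over both assays, was at 93.5% ± 0.252 and 85.2% ± 0.965. In Cd3g the first intron had 29.0% ± 3.94 and 15.0% ± 1.01, and the stretch from exon 2 onwards 71.7% ± 1.69 and 55.8% ± 1.75. From exon 2 onwards Cd3e, whose second exon is within the window at the TSS, had 61.7% ± 2.63 and 47.5% ± 2.12. No test was run on these parts.

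Among single tiles, 0 of 1718041 passed for the assay in T cells after adjustment, and 5.54% had an unadjusted p under 0.05. Unadjusted p-values under 0.05 were found in 15 of 29 tiles of Cd3e, 5 of 19 of Cd3d, 11 of 27 of Cd3g and 90 of 170 of Cd247. The BS mean was the higher in 27, 16, 24 and 163 of these tiles, compared with 64.7% of all tiles. By level, the median BS minus oxBS difference was 4.18 points in the 90 tiles at or below 20% in T cells, 19.2 points in the 99 tiles between 20% and 80%, and 8.62 points in the 56 tiles at or above 80%. Over all genes the medians in the same classes were 0.321, 3.32 and 1.09 points. A low level leaves little room for a difference, so the classes cannot be compared as if the same difference were possible in each. The medians of the CD3 genes rest mostly on Cd247. Of the tiles between 20% and 80% in T cells in the comparison of cell types, 83 were in Cd247, 10 in Cd3e, 9 in Cd3g and 0 in Cd3d. Overlapping tiles of Cd3g and Cd3d were counted for both genes. In B cells the medians of the CD3 gene tiles were −0.219, 0.531 and 0.191 points.

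Within the windows at the TSS the assay made little difference in points. BS exceeded oxBS in T cells by 1.53 points in Cd3e (exact permutation p = 0.0571), 4.90 points in Cd3d (0.0286), 3.43 points in Cd3g (0.0571) and 1.93 points in Cd247 (0.0286), with adjusted p-values between 0.453 and 0.567. No window in the genome passed, 0 of 21271, and 2012 had an unadjusted p under 0.05, those of Cd3d, Cd3g and Cd247 included. In B cells the 4 differences were between −0.852 and 0.0303 points.

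No difference between the sexes was detected in these windows. Male minus female differences were at most 2.67 points in size in either cell type, with adjusted p-values of at least 0.978 and exact permutation p-values of at least 0.0857. Over all genes 1.45% of windows passed for sex in B cells against 1.67% in T cells, and 0 of the 4 CD3 genes were among them.

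Other genes of the same signalling system were read from lists by role, against 0.732% of all windows called and higher in B cells and 0.408% called and higher in T cells. Of the receptor constant genes, 4 of 7 listed were found in the annotation, and 3 were called and higher in B cells: Trbc2 (95.8% in B cells against 2.60% in T cells), Trbc1 (93.1% and 0.463%) and Trac, the constant region of the alpha chain (94.6% and 11.7%). Trdc, the constant region of the delta chain, was at 78.9% in B cells against 92.8% in T cells and was not called. The median difference in this list was 87.8 points, against 0.569 over all genes. Of 37 genes of proximal receptor signalling, 13 were called and higher in B cells, against 0.732% of all windows, and 0 in T cells, with a median of 10.6 points. Among the largest differences in it were those of Themis (84.8 points), Zap70, the kinase that binds phosphorylated ITAMs (65.1 points) and Trat1, an adaptor that associates with the receptor (61.3 points). T cell surface and pre-TCR genes gave 8 of 20 higher in B cells and 0 in T cells, with a median of 15.8 points, among them Cd5 (58.7 points), Cd6 (43.2 points), Cd226 (43.0 points) and Cd27 (35.1 points). The 8 called were 3 in BS, 2 in male and 3 in female libraries alone, where the 243 windows called over all genes were 107, 102 and 119.

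Among B cell receptor chains and partners the sign was opposite. Of 24 genes, 12 were called and higher in T cells, against 0.408% of all windows, and 0 in B cells, with a median of −19.1 points, and 7 were called in male and 7 in female libraries alone. Ms4a1, which encodes CD20, had 13.6% in B cells against 94.2% in T cells, and Fcrla and Igll1 (a surrogate light chain) had differences of −72.6 and −66.7 points. Of 6 other ITAM chains and adaptors tested of 7 listed, 2 were called, Cd79a (11.7% in B cells against 76.2% in T cells) and Cd79b (11.9% and 41.7%). Both are also among the 24 genes above, so they are not a separate result. Hcst and Tyrobp, signalling adaptors of natural killer (NK) and myeloid cells, differed by 14.3 and −8.6 points and were not called. The CD3 genes thus differed between these cells in the opposite direction to Cd79a and Cd79b, the ITAM chains of the B cell receptor.

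The cell labels were checked against marker genes by their windows at the TSS. The marker lists share genes with the lists by role, such as Cd4, Lck and Cd5, and are not separate from them. Of 6 CD4+ T cell markers 3 were called, all higher in B cells (Cd5, Cd4 and Lck), and of those not called, Thy1 was at 15.3% in B cells and 6.55% in T cells, while Cd28 was highly methylated in both (89.4% and 91.1%). Of 6 B cell markers 5 were called, all higher in T cells. Both CD8+ T cell markers were called and higher in B cells, Cd8b1 with 34.9% and Cd8a with 60.5% in T cells. None of the 4 NK (0 at an unadjusted p under 0.05), 6 myeloid (3) and 4 erythroid (1) markers was called. Methylation of a marker's window does not measure how many cells of another type were present, and their part in the levels of the CD3 genes was not tested.

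Genes next to the CD3 loci were read in the same windows. None of 13 neighbours was called, against 1.14% of all windows, a share at which 13 genes would seldom include a called one. Of these neighbours 5 had an unadjusted p under 0.05 and 2 an adjusted p under 0.05, and their differences lay between −3.85 and 5.54 points. With windows at the TSS of the principal transcript, 1 of them was called. On chromosome 9, Ube4a (a ubiquitin ligase gene), 3972 bp beyond Cd3g, had 10.0% in B cells against 6.94% in T cells, and Mpzl2 and Jaml on the other side had 32.3% and 36.2%, and 46.8% and 41.3%. On chromosome 1, Creg1, 13373 bp upstream of Cd247, had 4.17% and 2.04%, and Pou2f1, which overlaps the end of Cd247, had 0.188% and 0.344%. The others, Atp5l, Kmt2a, Mpzl3, Rcsd1, Mpzl1, Dusp27, Gpa33 and Mael, lay within the range given.

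The windows most like those of each CD3 gene were found by the root mean square difference of levels over the 16 libraries. Cd3e was nearest to Cd3g (2.83 points), Cd247 (3.65 points) and Themis (3.83 points). The nearest to Cd3g were Cd3e (2.83 points), Themis (3.70 points) and Cd247 (4.27 points). Those near Cd247 included Themis (3.30 points) and Cd3e (3.65 points). The nearest to Cd3d were Trbc2 (2.56 points), Trbc1 (4.33 points) and Trac (5.92 points), constant genes of the receptor chains. Genes whose window overlapped that of the gene in question were left out, so Cd3d and Cd3g could not be named for each other.

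Depth was similar between the cell types. Libraries held between 123693203 and 171130063 calls in B cells, and T cell libraries between 154857425 and 170135949, or 5.78-7.99 and 7.22-7.94 calls per CpG. The methylated share of all calls was between 79.5% and 81.5% in B cells, compared with 78.5% to 79.7% in T cells. On the mitochondrial genome, which is largely unmethylated, between 0.0549% and 1.21% of calls were methylated, the highest share being in B cell library 2, an oxBS library from males. In T cells the share was 0.128% to 0.188% in BS and 0.0549% to 0.0812% in oxBS libraries. In B cells it was 0.0964% to 0.485% in BS and 0.251% to 1.21% in oxBS libraries. Its part in the differences between assays was not tested.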

How the data were processed

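Whole-genome BS and oxBS libraries were prepared from adapter-ligated DNA of each sorted sample, part of which was oxidised before bisulphite conversion. According to the methods and the submitters' processing notes, reads were trimmed with Trim Galore v0.6.0 and mapped to mm10 with Bismark v0.20.0 (SAMtools v1.3.1), and only alignments whose MAPQ reached 10 gave calls. What the authors deposited are counts of unmethylated and methylated calls per CpG and library, which the authors summed over both strands without normalisation. Multiple mapping and base calling could therefore affect levels before any step described here.

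Calls at CpGs of the reference (GRCm38.p6) were pooled over windows and levels computed per library. Libraries with 10 or more calls in a window counted as informative, and a window needed at least 2 CpGs and 5 informative libraries per cell type, or 3 per group within a cell type. Calls were fitted by a quasi-binomial logistic model holding cell type, sex and assay, the Pearson dispersion being at least 1 and the cell type being tested by an F test. P-values were adjusted over all genes or tiles by the Benjamini-Hochberg method, and 2-sided exact permutation tests over libraries are given beside them. A call required both an adjusted p under 0.05 and 20 points between the means, except for assay, sex and interaction, where only the adjusted p counted. Bodies were tested in genes of at least 2000 bp. The model was tested on simulated data. At most 7.04% of chromosome 9 CpGs had identical counts in 2 libraries. Libraries held between 123693203 and 171130063 calls.

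The members, gene lists, windows and tests were chosen with earlier results of these data known. Genes named were the 4 members with the 3 called tiles of largest difference, the 4 largest differences of each list, the 3 nearest genes on either side, and the 3 most similar windows, of which some genes are not reported here. Other tiles, and genes that overlap a member, were named after their values were seen. The comparison of bodies between assays was added after the data were seen. Alternatives changed the window, coverage, test, dispersion, covariates, tile length and limit, or left out libraries. Python v3.11.15 with NumPy v2.4.6, SciPy v1.17.1, Numba v0.67.0, pandas v2.3.3 and Matplotlib v3.10.9, and R v4.3.3 with limma v3.58.1 were used.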

Additional observations from a re-analysis of the deposited data

Results flagged for a closer look

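In 8 of 50 groups of libraries, 1 library stood apart from the others of its cell type by Dixon's criterion. Chance meets it in about 1 group in 20 for values that vary smoothly, a rate that cannot be applied where all other libraries are at 0% or 100%. The latter held in 4 of the 8, each of which rests on 1 call. Among T cells, library 13, a BS library from females, was the highest in 4 of them. It had 5.53% at the TSS of Cd3e, where the next library had 2.97%. In tiles it had 7.69% at +39500 bp of Cd247 (next 2.70%), 2.33% at −2500 bp of Cd3d where the other T cell libraries were at 0%, and 10.5% at +500 bp of Cd3d (next 2.44%). T cell library 8 had 4% in the tile at +1000 bp of Cd3d and in the tile at −3000 bp of Cd3g, which covers the same CpGs, against 0% in the others. Among B cells, library 12 had 94.7% in the tile at +4000 bp of Cd247 where the others had 100%, and library 4 had 75.5% in the tile at its TSS, where the next had 85.7%. Each of these libraries remained on its own side of the gap between the cell types.

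The difference between B and T cells in gene bodies was not the same in BS and oxBS libraries, by the interaction of cell type and assay in the model. The BS difference minus the oxBS difference was −16.6 points in Cd3e (adjusted p = 0.00143), −16.1 points in Cd3g (adjusted p = 0.00142), −14.5 points in Cd247 (adjusted p = 0.000128) and −5.06 points in Cd3d (adjusted p = 0.0213). The interaction passed in 17% of all bodies, counted in either direction.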

How the results depend on the processing

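At the TSS, 4 of the 4 genes were called in each of 13 alternatives and with each of the 16 libraries left out (4 in all), and their differences stayed between 76.2 and 92.1 points. Called tiles, 161 of 250, numbered 89 in BS libraries alone, 130 in oxBS, 102 in male, 97 in female and 91 with 1000 bp tiles, and between 157 and 162 when 1 library was left out. Of the tiles tested, 64.4% were called in the main setting, 35.9% in BS, 53.1% in oxBS, 41.6% in male and 39.4% in female libraries. Over all genes the shares were 3.67%, 0.899%, 1.49%, 0.907% and 0.922%. Each assay or sex alone leaves 8 libraries, the cause of the lower count in BS than in oxBS libraries was not tested, and longer tiles leave fewer to test. With 250 bp tiles, 227 of 365 were called (62.2%, against 3.88% of all tiles), and with 1000 bp tiles 91 of 136 (66.9%, against 3.12%). The 2 tiles of Cd247 higher in T cells ranged from 0 to 4 over the alternatives, and 1 of Cd3g was called with a limit of 10 points or none. Over the alternatives 0 to 1 neighbours and, higher in T cells, 0 to 1 constant genes were called. Of the proximal signalling genes 9 to 16, of the B cell receptor genes 7 to 13, of the T cell surface genes 2 to 11, of the B cell markers 3 to 5 and of the other ITAM genes 1 to 2 were called. Called bodies were between 3 and 4 without 1 library, the one lost being Cd3e. For assay in the bodies of T cells, the count of 4 fell to 0 by an exact permutation test. The smallest p of that test passes adjustment over all genes only where most genes reach it. The count was 3 without any 1 T cell library, with 3 to 4 over both cell types. Windows at the TSS called for assay or sex stayed at 0 when 1 library was left out. All promoters called, 243, were 107 in BS, 102 in male and 119 in female libraries, and all bodies called, 175, ranged from 105 to 283. No direction changed among the called results. No paired analysis was possible because the labels number the libraries from 1 to 16 and no number is shared between groups. Tiles with few CpGs and 10 calls per library limit what can be seen at single tiles.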
